A study of Mus musculus with 2 samples.

Results

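SR proteins and heterogeneous nuclear ribonucleoproteins (hnRNPs) are families of nuclear RNA-binding proteins, and their genes were followed in adult mouse heart. Members were all protein-coding genes whose symbol in GENCODE M21, a mouse gene annotation on the GRCm38 assembly (also called mm10), is Srsf followed by a digit or starts with Hnrnp. This rule gave 31 genes of 43346, 11 SR protein genes and 20 hnRNP genes, and used no measured value. A pair of annotated hnRNP A1-like pseudogenes was left out. The 31 genes had 212 quantified transcripts, of which 104 had another annotated type than protein_coding and 1 had no type in M21. Those types are nonsense_mediated_decay (a reading frame that ends early enough to mark the RNA for destruction), retained_intron (an intron kept in the RNA) and processed_transcript (a spliced RNA without an annotated reading frame).

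SR proteins carry RNA recognition motifs and a tail of arginine and serine repeats, bind exonic enhancers and help the spliceosome to recognise exons. The hnRNPs coat nascent RNA, often act against exon inclusion, and also take part in export, stability and translation of messenger RNA. Many genes of both families limit their own output: the protein binds its own pre-mRNA and promotes inclusion of an exon with an early stop codon (a poison exon) or retention of an intron, and the resulting RNA is degraded or kept in the nucleus. In heart, Srsf1, Srsf2, Srsf10 and Hnrnpu are known from mouse mutants as genes that heart muscle needs for its development or function.

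The data were poly(A)-selected RNA of whole heart from mice of the inbred strain C57BL/6J, aged 8 weeks, in 1 group of 2 libraries (replicates 1 and 2). The labels give littermates of both sexes, reads of 76 nucleotides in stranded pairs, RNA above 200 nucleotides in size, separate biosamples and 1 donor record for both libraries, and name no treatment. The libraries held 57464573 and 62912053 estimated counts. The spread between them may be technical in part, and all comparisons below are of these libraries, not of conditions. Although the labels describe both as mixed in sex, counts of Xist were 13725 and 13 in the first and the second library, and the sum over 4 genes of the Y chromosome was 0 and 2916. Cardiomyocyte markers were high in both (8 genes, 30554 and 34899 TPM together), and no cardiomyocyte marker was called different, that is, past an exact binomial test on counts with a fold of at least 2. TPM is a level per transcript length with an equal total in both libraries. Called higher in replicate 2 were all of 5 airway epithelium markers (0.65 and 2269 TPM together), all of 5 erythroid markers (7592 and 94903 TPM), 3 of 5 immune markers (80.7 and 207 TPM over all 5) and all of 4 adipocyte markers (48.5 and 288 TPM). Of 5 fibroblast markers (371 and 331 TPM) Lum was called higher in replicate 1 (56.72 and 25.15 TPM), and of 4 endothelial markers (145 and 157 TPM) none was called. Nuclear protein-coding genes made up 33.8% of TPM in replicate 1 and 50.7% in replicate 2, so a TPM in one library is not on quite the same footing as in the other. The part of these differences in the results below was not tested, and in whole tissue fewer cells of a type and less RNA per cell cannot be told apart.

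The 31 genes together held 821.54 TPM in replicate 1 and 826.33 TPM in replicate 2, or 0.0822% and 0.0826% of all TPM. SR protein genes summed to 316.92 and 362.73 TPM and hnRNP genes to 504.62 and 463.6 TPM. In both libraries 30 of the 31 genes reached a TPM of 1, against 49.7% of protein-coding genes. A mean of at least 10 TPM was reached by 21 members, against 21.1% of protein-coding genes, and a mean of at least 50 TPM by 5, against 5.02%. The median member stood at 14.2 TPM and the median protein-coding gene at 1.23 TPM.

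Among SR proteins the highest was Srsf5 (ENSMUSG00000021134.13, GRCm38 chr12:80945504-80950507, plus strand), at 90.46 TPM in replicate 1 and 115.39 in replicate 2 (103 ± 17.6, SD, n = 2). Srsf2, also called SC35 and known as the classical component of nuclear speckles, followed at 57.45 and 83.57 TPM (70.5 ± 18.5), and Srsf11, an SR protein linked to 3' splice site recognition, at 52.99 and 52.19 TPM (52.6 ± 0.566). The ranges of these 3 genes did not meet. Srsf6 stood at 26.25 and 25.51 TPM. Srsf1, the founding member of the family, stood at 30.32 and 20.79 TPM. Srsf3, the smallest SR protein and an adaptor for messenger RNA export, stood at 22.58 and 26.65 TPM. The ranges of these last genes overlapped. Lower levels were seen for Srsf10, which represses splicing in its dephosphorylated form (13.04 and 15.2 TPM), Srsf4 (7.82 and 10.8 TPM), Srsf7 (8.72 and 6.53 TPM) and Srsf9 (7.24 and 6.09 TPM). Srsf12 was close to the limit of detection, with 2 counts in replicate 1 and 1 in replicate 2 (0.05 and 0.01 TPM).

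Hnrnpl (ENSMUSG00000015165.12, chr7:28808541-28822266, plus strand), which binds CA repeats, had the highest mean level of the whole set, at 120.7 TPM in replicate 1 and 109.24 in replicate 2 (115 ± 8.10). Its range overlapped that of Srsf5, so the order of the leading pair differed between the libraries. Hnrnpk, a KH-domain protein that binds C-rich RNA, stood at 71.87 and 58.33 TPM (65.1 ± 9.57). Members of the F and H group, which bind runs of G, ranged from Hnrnpf at 33.51 and 35.16 TPM and Hnrnph1 at 35.76 and 29.91 TPM down to Hnrnph3 at 12.88 and 9.76 TPM and the X-linked Hnrnph2 at 12.13 and 7.63 TPM. In the A and B group, Hnrnpa2b1 (35.18 and 30.97 TPM) and Hnrnpa1 (33.52 and 27.37 TPM), best known as splicing repressors, stood above Hnrnpa3 (15.56 and 9.84 TPM) and the single-exon gene Hnrnpa0 (8.82 and 11.51 TPM). Hnrnpab stood at 25.03 and 36.35 TPM. Its relatives Hnrnpdl and Hnrnpd, the latter also called AUF1 and known to bind AU-rich elements of unstable messenger RNAs, stood at 24.3 and 23.29 TPM and at 5.14 and 5.75 TPM. Hnrnpc, which binds runs of U, stood at 25.35 and 17.64 TPM, and Hnrnpm at 12.93 and 15.46 TPM. Beside Hnrnpd, the lowest hnRNP genes were Hnrnpul2 (6.69 and 5.67 TPM), Hnrnpr (6.23 and 5.52 TPM), the nuclear scaffold protein gene Hnrnpu (5.4 and 4.05 TPM) and Hnrnpll, the paralog of Hnrnpl (4.95 and 3.97 TPM). Hnrnpul1 stood at 8.67 and 16.18 TPM. Of the 30 neighbouring pairs in the order by mean, 24 had overlapping ranges over the 2 libraries, and 6 did not. The gaps to the next gene lay below Srsf5, Hnrnpk, Srsf11, Hnrnpa1, Hnrnpc and Hnrnpll. The gap below Hnrnpa1 held only for its neighbour. Further down, Srsf1 at 30.32 TPM in replicate 1 lay above the 27.37 TPM of Hnrnpa1 in replicate 2.

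**Figure D1:**
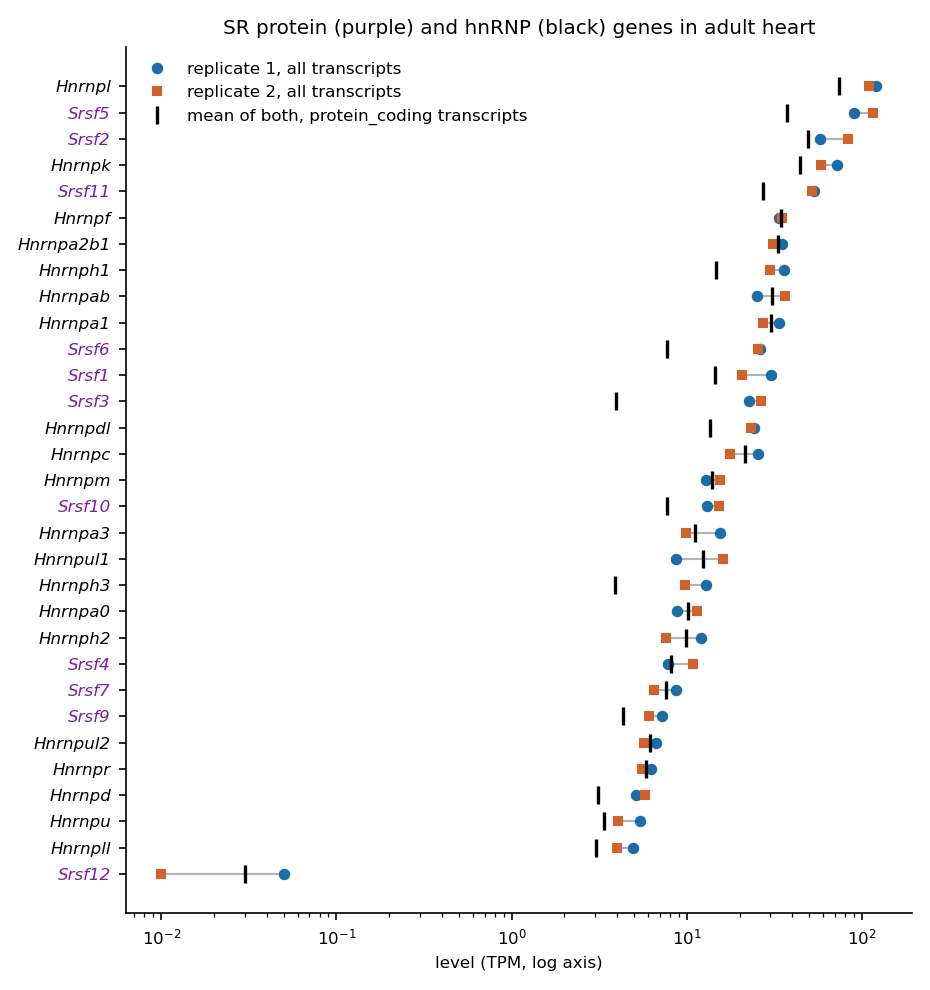
Level of each gene in TPM on a log axis, as a circle for replicate 1 and a square for replicate 2, with a tick at the mean TPM of its protein_coding transcripts. Genes are ordered by mean, from Hnrnpl at 115 TPM to Srsf12 at 0.03 TPM, and the tick lies far to the left of both points for Srsf3, Srsf6 and Hnrnph3.

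Transcripts of other types than protein_coding held 35.0% of the members' summed TPM in replicate 1 and 32.2% in replicate 2 (33.6 ± 1.94%). The share was 53.8% and 47.9% for SR protein genes (50.8 ± 4.16%) and 23.2% and 20.02% for hnRNP genes (21.6 ± 2.26%). Retained introns were the largest of these types, with 19.7% and 15.4% of the summed TPM, followed by processed transcripts with 9.44% and 10.3% and nonsense-mediated decay transcripts with 5.75% and 6.38%. In SR protein genes retained introns held 26.5% and 20.3%, processed transcripts 17.0% and 18.3%, and decay transcripts 10.3% and 9.28%. Processed transcripts reached 1% in both libraries in only 3 SR protein genes. Among these was Srsf5, the highest, where they held 44.9% and 48.1% of 90.46 and 115.39 TPM. At least 1% of the gene in both libraries was held by retained introns in 15 genes, by decay transcripts in 11 and by processed transcripts in 6. These counts by type were not made over all protein-coding genes, so whether they are high is unknown. Of the 31 genes, 11 had no quantified transcript of another type, among them Hnrnpf, Hnrnpa1, Hnrnpa2b1, Hnrnpab, Hnrnpc and Srsf7. For some of these M21 lists such transcripts that were not quantified, 7 for Hnrnpa2b1 and 4 for Srsf7, so their share is unknown rather than 0. The shares of summed TPM above count all 11 genes as 0, and these are 2 of 11 SR protein genes and 9 of 20 hnRNP genes. The part of this in the gap between the families was not tested.

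Over the 14 members that had a quantified transcript of another type and reached a mean of 10 TPM, the median share was 43.5%, against 12.0% over all 2997 protein-coding genes under the same filter. The SR median was 48.5% (n = 7) and the hnRNP median 36.05% (n = 7). A share over 50% was seen in 5 of the 14, against a background of 17.1%, and 21.3% of all such genes lay above the members' median. The number of quantified transcripts of another type moved with this share, and its part in the members' median was not tested. It had a median of 4.5 in the members and 3 over all, and among other genes the median share rose from 1.36% with 1 such transcript (n = 584) to 6.71% with 2 to 3 (n = 1062), 20.6% with 4 to 6 (n = 845) and 41.9% with 7 to 20 (n = 491). The members' medians in the same classes were 12.0% (n = 1, Hnrnpa3, at 1.27% by estimated counts), 65.9% (n = 3), 43.2% (n = 5) and 48.5% (n = 5). The 3 members with 2 to 3 such transcripts ran from 2.37% (Hnrnpm) to 70.2% (Srsf6). The class with most such transcripts showed the smallest gap. By estimated counts in place of TPM, which gives short transcripts less weight, the members' median was 34.2% and that of all genes 5.15%. On that scale the mean shares of Hnrnph3 (46.5%) and Hnrnph1 (44.7%) fell below 50%. Those of Srsf3 (82.2%), Srsf6 (60.6%) and Srsf5 (58.1%) stayed above it.

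**Figure D2:**
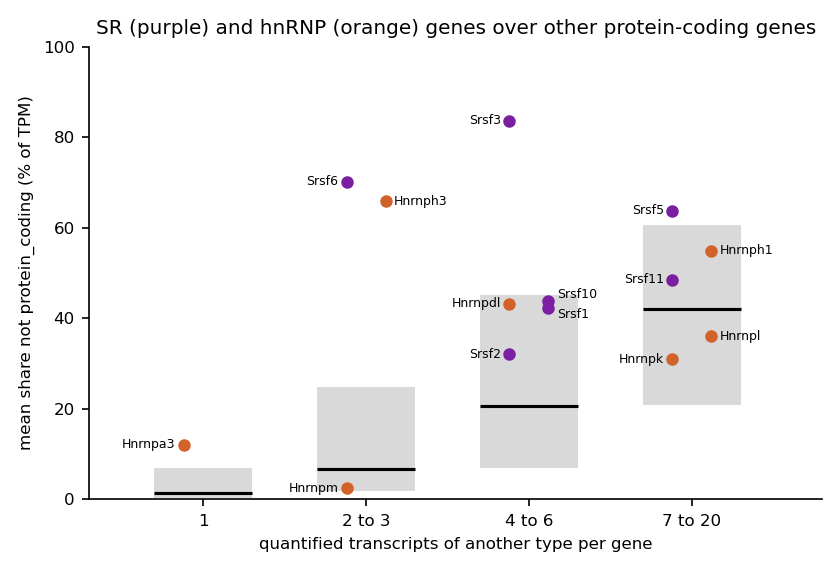
Share of TPM held by transcripts that are not protein_coding, mean of 2 libraries, by the number of such transcripts quantified for the gene. Points are the 14 members at 10 TPM or more on average, and black lines and grey boxes give the median and the range from the lower to the upper quartile of the other genes. Srsf3, Srsf6, Hnrnph3, Srsf5 and Hnrnpa3 lie above the box of their class, while the other members with 7 to 20 such transcripts lie within it.

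Srsf3 (ENSMUSG00000071172.8, chr17:29032628-29043373, plus strand) had the highest share, 79.5% in replicate 1 and 87.9% in replicate 2 (83.7 ± 5.96%). Its decay transcript Srsf3-201 stood at 9.81 and 6.52 TPM, its retained intron transcript Srsf3-204 at 7.20 and 5.55 TPM, and its complete coding transcript Srsf3-202 at only 4.64 and 3.23 TPM. Srsf6 (ENSMUSG00000016921.10, chr2:162931528-162937121, plus strand) had 72.9% and 67.6%, with Srsf6-204 (retained intron) at 10.29 and 9.39 TPM, Srsf6-201 (decay) at 8.84 and 7.85 TPM and Srsf6-203 (coding) at 6.89 and 8.27 TPM. In Srsf3 both of these forms stood above the coding one in each library. In Srsf6 the retained intron form did so in both libraries and the decay form in replicate 1 only, and the deposited intervals of both forms overlapped between the libraries. Hnrnph3 had 64.8% and 67.0%, of which retained introns held 42.9% and 45.3% and a decay transcript, Hnrnph3-204, 22.0% and 21.6%. Srsf5 had 64.5% and 63.1%, mostly in the processed transcripts Srsf5-206 (20.34 and 23.87 TPM) and Srsf5-211 (20.26 and 31.6 TPM) and the retained intron transcript Srsf5-212 (16.5 and 16.36 TPM). Hnrnph1 had 55.4% and 54.5%, all in processed transcripts. Srsf11 had 53.1% and 43.8%, led by the retained intron transcript Srsf11-203 at 17.13 and 11.98 TPM. These 6 genes were above 40% in each library. The 4 lowest of the 14 were Hnrnpm (3.32% and 1.42%), Hnrnpa3 (12.1% and 11.8%), Hnrnpk (40.8% and 20.99%) and Srsf2 (43.0% and 21.02%). Hnrnpl lay between, at 35.7% and 36.4%, and retained introns held 30.4% and 29.99% of it.

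**Figure D3:**
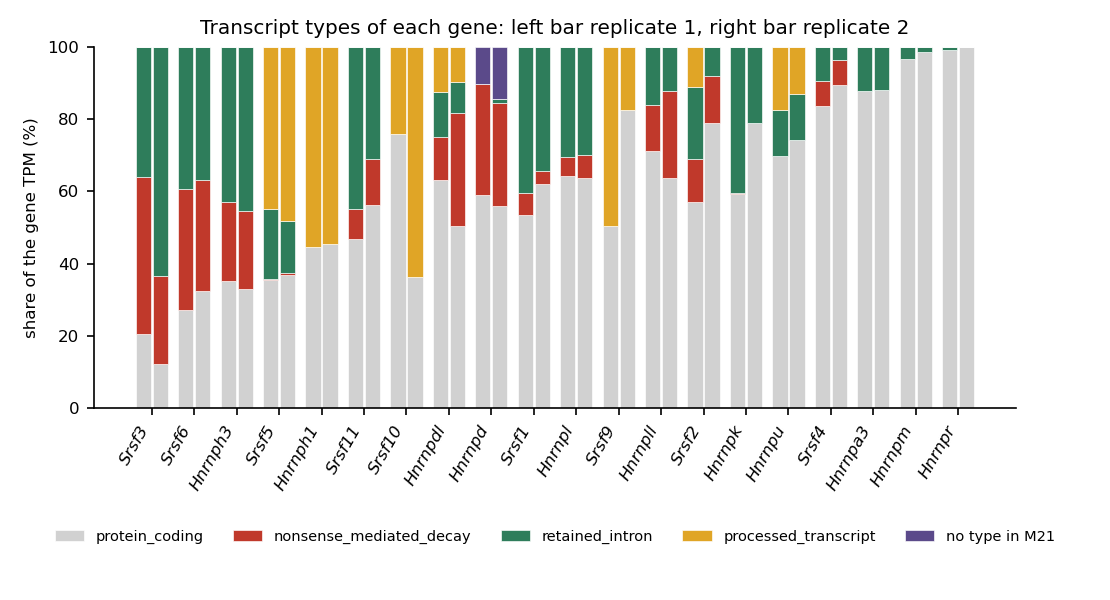
Share of each gene's TPM by annotated transcript type, in percent, with the left bar for replicate 1 and the right bar for replicate 2. The 20 genes with a quantified transcript of another type are ordered by their mean share, from Srsf3 at 83.7% to Hnrnpr at 0.482%, and Srsf10, Srsf9, Srsf2 and Hnrnpk show bars that differ in height between the libraries.

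Counting protein_coding transcripts only, the order of the genes was another. Hnrnpl stayed first with a mean of 73.5 TPM, followed by Srsf2 (49.4), Hnrnpk (44.3) and Srsf5 (37.4). Srsf6 went from rank 11 by total to rank 21 by coding TPM (7.69), and Srsf3 from rank 13 to rank 26 (3.94). The protein_coding type does not always mean a whole reading frame. The incomplete transcript Hnrnpl-204, of 502 nucleotides, held 45.4 and 26.08 TPM, and transcripts with a complete reading frame held only 19.4% and 26.8% of Hnrnpl, 13.3% and 13.1% of Srsf11, and 33.3% and 28.7% of Hnrnpdl. With incomplete coding transcripts counted among the other types, a setting chosen after seeing the data, the share of the summed TPM was 43.2%.

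Decay transcripts held a mean of at least 2% of 11 genes, 6 SR protein genes and 5 hnRNP genes. This count, too, was not made over all protein-coding genes and serves only to select the transcripts described here. In the leading decay transcript of all 11 the annotated stop codon lay at least 50 nucleotides before the last exon junction, from 80 nucleotides in Srsf1 to 860 in Hnrnpdl. That distance is the usual criterion by which the decay machinery recognises an early stop. The type nonsense_mediated_decay itself stands for a frame that ends early, so the position of these stops follows from the selection. It gives no measure of decay in these libraries. In 6 of the 11 the stop lay in an exon that was absent from the gene's leading complete coding transcript, which is the arrangement of a poison exon. Those exons had 70 nucleotides in Hnrnpl, 109 in Srsf11, 268 in Srsf6, 456 in Srsf3, 188 in Srsf4 and 83 in Hnrnpll, and 5 of the 6 lengths were not a multiple of 3. In Srsf2 and Hnrnpd the stop was that of the coding transcript itself, with further junctions after it (3 in Srsf2 and 2 in Hnrnpd). In Hnrnph3 it lay in a shared exon, and in Srsf1 and Hnrnpdl in an exon with other bounds. The 6 exons are shown because the decay transcript has them and the coding one lacks them. Each runs from its first base to the stop codon, which is in capitals, 5' to 3' on the gene's strand, from the GENCODE M21 transcripts.
Srsf3: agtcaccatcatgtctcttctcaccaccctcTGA
Srsf6: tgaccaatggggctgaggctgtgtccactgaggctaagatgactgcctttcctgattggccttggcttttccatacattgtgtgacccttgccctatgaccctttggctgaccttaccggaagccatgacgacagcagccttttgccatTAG
Srsf11: ttcttttccctggttcagccTGA
Srsf4: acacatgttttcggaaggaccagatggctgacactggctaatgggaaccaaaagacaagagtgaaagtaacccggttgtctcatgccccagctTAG
Hnrnpl: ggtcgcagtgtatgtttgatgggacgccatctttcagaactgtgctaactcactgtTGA
Hnrnpll: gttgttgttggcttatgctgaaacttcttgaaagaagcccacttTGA
On GRCm38 these stretches lie at chr17:29039454-29039487 (plus strand, Srsf3), chr2:162932815-162932966 (plus, Srsf6), chr3:158024209-158024231 (minus, Srsf11), chr4:131884295-131884390 (plus, Srsf4), chr7:28817335-28817393 (plus, Hnrnpl) and chr17:80044976-80045022 (minus, Hnrnpll). Of the 6 stops, 4 were TGA and 2 were TAG. The stretch up to and including the stop was shortest in Srsf11 (23 bases) and longest in Srsf6 (152 bases).

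The amount of RNA with these exons differed widely between the genes. Srsf3-201 held 43.4% of Srsf3 in replicate 1 and 24.5% in replicate 2, and Srsf6-201 held 33.7% and 30.8% of Srsf6. In Hnrnpll the decay transcript held 12.7% and 24.2%, but of a gene at under 5 TPM. Shares were 6.66% and 9.83% for Srsf11-206, 5.33% and 6.41% for Hnrnpl-213 and 4.48% and 3.34% for Srsf4-204. Hence a decay form was above 20% of the gene in both libraries for Srsf3 and Srsf6 among these 6. Of the 11 leading decay transcripts, 8 had the weakest level of transcript support in M21, and 5 were incomplete at an end. Srsf3-201 had level 1, the strongest, but its length in the deposited table differed from that in M21, as did those of Srsf3-204 and of Srsf3-202, the coding transcript used as reference.

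The leading retained intron transcript covered a whole intron of the coding transcript in 7 of 15 genes, part of an intron only in 7, and none in 1 (Srsf1). In Srsf6, Srsf6-204 kept intron 2 of 5, of 1283 nucleotides (chr2:162932143-162933425, plus strand), and in Srsf3, Srsf3-204 kept 2 introns, among them intron 3, of 2150 nucleotides (chr17:29038625-29040774, plus strand). Both introns contain the poison exon printed above, as does intron 3 of Srsf11, which Srsf11-203 covers in part. In Hnrnpl, Srsf4 and Hnrnpll the leading retained intron transcript did not cover it. In Srsf5, Srsf5-212 kept intron 5, of 1229 nucleotides (chr12:80947866-80949094, plus strand). The splice sites of these 3 introns are shown because each is kept whole in the leading retained intron transcript of its gene. Of these transcripts only Srsf6-204 also led its gene over all types. The first or last 2 intron bases are in capitals (3 exon and 6 intron bases at the 5' site, 20 intron and 3 exon bases at the 3' site).
Srsf6 intron 2, 5' site: gcaGTgagt
Srsf6 intron 2, 3' site: actcccttcatgtgataaAGgtg
Srsf3 intron 3, 5' site: cagGTactt
Srsf3 intron 3, 3' site: tttactgtttctgcttctAGatc
Srsf5 intron 5, 5' site: cagGTttgt
Srsf5 intron 5, 3' site: cataattgtcttgtgttaAGgat
All 3 introns begin with GT and end with AG, the usual bases of introns removed by the major spliceosome. Together Srsf6-204 and Srsf6-201, which share the stretch with the early stop, held more of Srsf6 than its coding transcript in both libraries. Smaller whole introns were kept in transcripts of Hnrnpdl (285 nucleotides), Hnrnph3 (185) and Hnrnpa3 (78), and in Srsf2 one of 1059 nucleotides that lies outside the coding region.

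The 2 libraries gave unlike transcript mixtures for some genes. The share of other types differed by at least 10 percentage points in 4 of the 14 members, against a background of 16.8% of genes (9.41% higher in replicate 2 and 7.41% higher in replicate 1). Srsf10 had 24.1% in replicate 1 and 63.6% in replicate 2, with the processed transcript Srsf10-210 at 2.57 and 6.76 TPM. Hnrnpdl had 36.8% and 49.6%, with the decay transcript Hnrnpdl-205 at 1.96 and 5.56 TPM. Srsf2 and Hnrnpk were lower in replicate 2, by 22.0 and 19.9 points. In Hnrnpk the difference came from Hnrnpk-215, a retained intron transcript of 522 nucleotides, at 19.21 and 2.82 TPM. By estimated counts 3 of the 14 differed by at least 10 points, against a background of 8.88%. On that scale the Srsf10 shares were 5.11% and 24.0%, a difference of 18.9 points in place of 39.6, and the Hnrnpk shares were 12.5% and 7.37%. With incomplete coding transcripts counted among the other types 3 differed as well, against a background of 20.1%. In Srsf2 the coding transcript Srsf2-206 was listed at 0 in replicate 1 and stood at 21.23 TPM in replicate 2, while Srsf2-205, a processed transcript, stood at 6.42 TPM and was listed at 0. The interval deposited for the Srsf2 decay transcript Srsf2-202 ran from 0 to 5.87 TPM in replicate 1 and from 2.18 to 22.9 TPM in replicate 2, so the division among its forms was uncertain. Below the limit of 10 TPM, Srsf9 differed as well, with 49.4% and 17.6%, or 29.3% and 13.4% by estimated counts.

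Of 20 members with several transcripts and a mean TPM of at least 10, 13 had the same leading transcript in both libraries, against 86.8% of genes. In 3 of the 20, Srsf6, Srsf3 and Hnrnph3, the leading transcript was not protein_coding in either library, against 10.7% of genes. The Srsf3 leader was Srsf3-201 in replicate 1 and the retained intron transcript Srsf3-203 in replicate 2, with 0 and 10.74 TPM for the latter. Their deposited intervals were 0 to 0.74 and 9.05 to 12.4 TPM. By estimated counts 16 of the 20 leaders were the same (background 92.3%), and Srsf3 was the 1 gene with a non-coding leader in both (background 4.52%). Over all members' transcripts with a TPM above 0, 67 of 182 had deposited intervals that did not overlap between the libraries. The same count was not made over the transcripts of all genes, so it is no trait of the members.

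**Figure D4:**
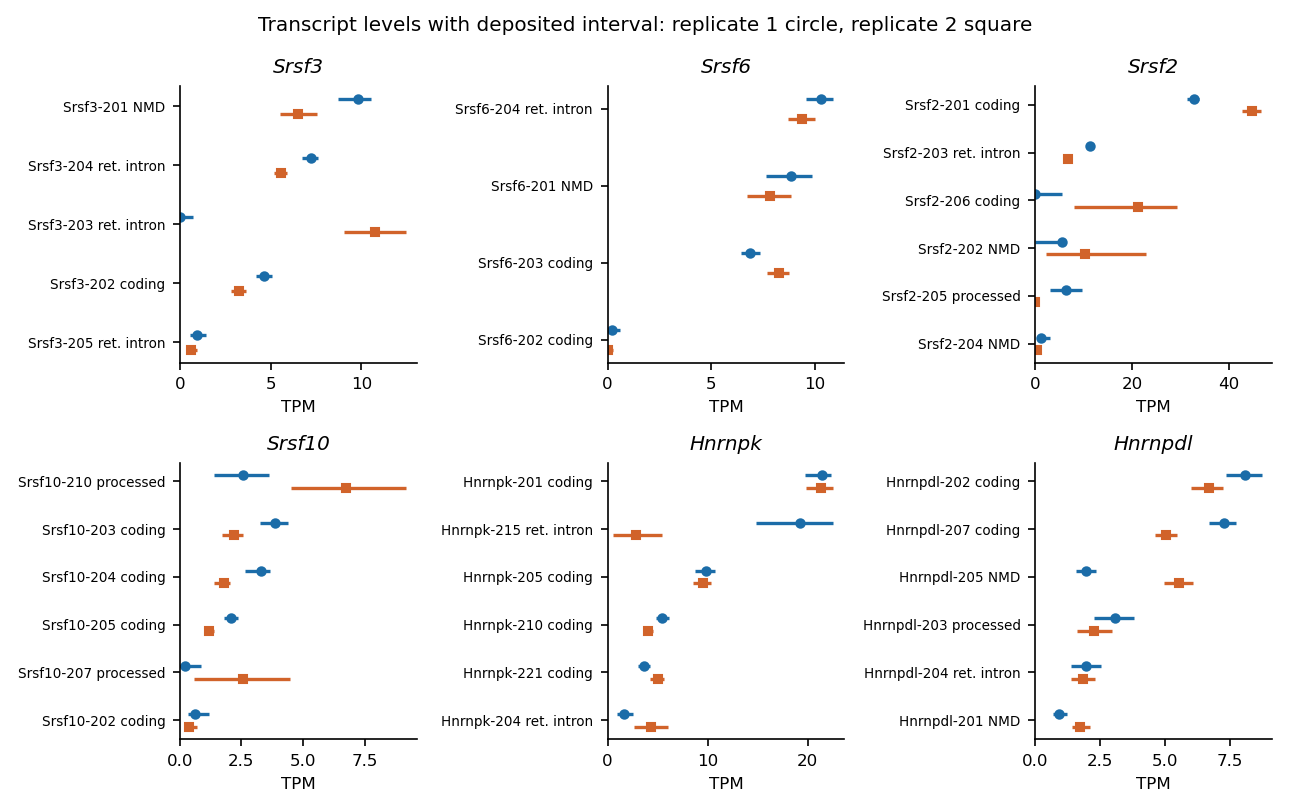
Level in TPM of the leading transcripts of 6 genes, circle and upper line for replicate 1, square and lower line for replicate 2, with the interval deposited with each value as a line. Srsf6 shows near-equal points in both libraries, whereas Srsf3-203, Srsf2-206 and Hnrnpk-215 are near 0 in one library and at 10.74, 21.23 and 19.21 TPM in the other.

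At the level of whole genes no tested member differed 2-fold between the libraries in counts scaled to library size. Of 30 members with at least 20 counts, 0 passed an exact binomial test on counts scaled with edgeR's TMM factors (Benjamini-Hochberg adjusted p under 0.05) together with a fold of at least 2, against a background of 11.7% of 16145 genes (8.18% higher in replicate 2 and 3.53% higher in replicate 1). With no limit on the fold 26 members passed, against a background of 67.8%, 20 of them higher in replicate 1 (background 34.9%) and 6 higher in replicate 2 (background 32.9%). With a fold of at least 1.5, 8 passed, against a background of 27.3%: Hnrnpul1 was higher in replicate 2 (background 15.0%), and Hnrnpa3, Hnrnpc, Hnrnph2, Hnrnph3, Srsf1, Srsf10 and Srsf7 were higher in replicate 1 (background 12.2%). This test counts reads of 1 library against 1 and has no replicate check. The largest ratio toward replicate 2 was that of Hnrnpul1, an hnRNP U-like protein, with 1725 and 3385 counts, 1.64-fold higher (adjusted p = 1e-64, exact binomial test). The largest toward replicate 1 was that of Hnrnph2, with 1755 and 1205 counts, 1.74-fold higher there (adjusted p = 2.36e-49, exact binomial test). Srsf2 had 5126 and 8095 counts and was 1.32-fold higher in replicate 2, and Srsf1 had 3236 and 2446 counts and was 1.58-fold higher in replicate 1.

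The log2 ratio of the libraries (replicate 2 over replicate 1) had a median of -0.34 in the members and -0.02 over all tested genes, with 23 members below 0 and 7 above. This ratio moved with the GC content of the transcripts: over all tested genes its median rose from -0.63 in the bin of 36 to 38% GC to 0.52 in that of 60 to 62%. The members lay between 41.1% (Hnrnpa2b1) and 55.4% (Hnrnpa0). After subtraction of the trend the members' median was -0.03, with 17 below 0 and 13 above, and again 0 passed the fold limit (background 9.07%). The log2 ratio of Hnrnpul1 was 0.72 before and 0.85 after this correction, that of Srsf2 0.40 and 0.54, that of Srsf5 0.06 and 0.43, and that of Hnrnph2 -0.80 and -0.32. Thus Hnrnpul1, Srsf2 and Srsf5 lay further above the other genes of their GC content than their raw ratios show. By TPM 20 members were higher in replicate 1 and 11 in replicate 2. With TPM rescaled over nuclear protein-coding genes 30 were higher in replicate 1 and 1 in replicate 2. The members' rescaled TPM summed to 2434 in replicate 1 and 1629 in replicate 2, against 821.54 and 826.33 without rescaling. The fold limit was not applied to rescaled TPM. Thus the sign and the size of a difference in TPM depended on the scale.

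**Figure D5:**
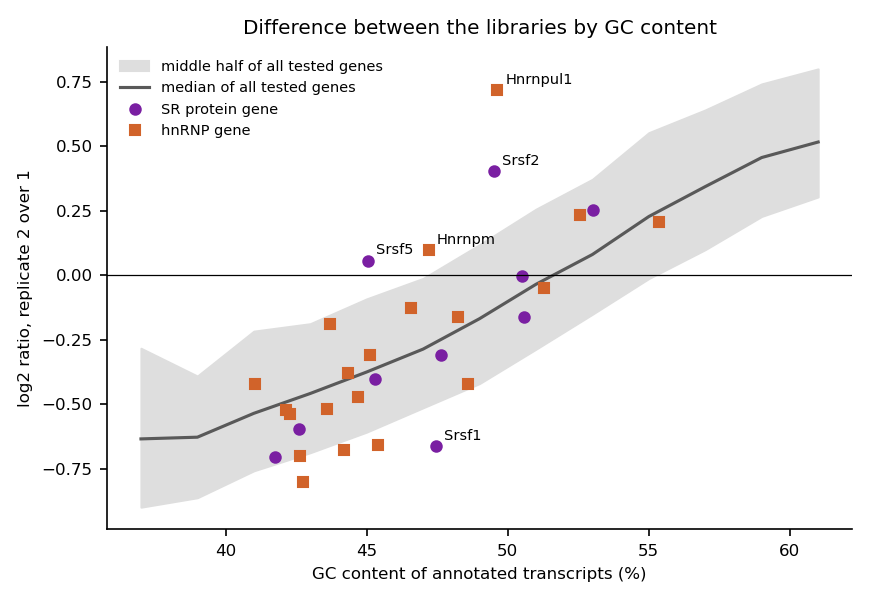
Log2 ratio of replicate 2 over replicate 1 (TMM-scaled counts) by GC content of the annotated transcripts, with circles for SR protein genes and squares for hnRNP genes. The line and band give the median and the quartiles of all tested genes per bin, from -0.63 to 0.52, with Hnrnpul1 (0.72), Srsf2 (0.40), Srsf5 and Hnrnpm above the band and Srsf1 and Hnrnph2 (-0.80) among those below it.

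Reads of some members could also belong to other genes. Exons of Hnrnpm overlapped on the same strand with March2, which had 3665 and 5303 counts. Exons of Srsf2 overlapped on the opposite strand with Mfsd11 (1472 and 1759 counts) and Mettl23 (1166 and 976 counts), and those of Hnrnpu with Cox20 (644 and 538 counts). Hnrnpab overlapped there with Phykpl (617 and 910 counts), Hnrnph3 with Rufy2 (290 and 321 counts) and Hnrnpk with Rmi1 (275 and 211 counts). The libraries were stranded, but no source used here says whether the counting used strand. The posterior standard deviation of the gene count was largest relative to the count in Hnrnpu, at 2.05%, so the division of reads between genes was narrow by the deposited estimate, unlike that between transcripts.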

How the data were processed

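Heart poly(A) RNA was measured in 2 libraries of 1 group, taken from the labels. The estimated counts deposited by the authors are fragments assigned to each gene or transcript, not whole because shared fragments are divided. Per the file headers, the tables of each library also hold deposited TPM (maximum likelihood and posterior mean), FPKM, the percent of the gene held by each transcript, and a standard deviation and interval of each estimate, the level of the interval not being stated. Notes deposited by the authors name mm10 and GENCODE M4. The aligner and quantification program were not given in the sources used here. Symbols, types, coordinates and sequences came from GENCODE M21 by identifier: 42462 of 43346 genes (98.0%) matched, and 192 of 212 member transcripts (90.6%) had the same length. M21 lists 147 transcripts of another type for the members, of which 39 were not quantified. Spike-ins and other entries outside genes held 1.65% and 1.72% of counts and were left out of tests.

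Shares were computed again from TPM and differed from the deposited percent by at most 0.127 points. Expected counts were rounded, scaled with TMM factors (0.957 and 1.04, edgeR 4.0.16, R 4.3.3) and compared by a two-sided exact binomial test with Benjamini-Hochberg adjustment over all genes with at least 20 counts, which was tested on simulated data. An edgeR fit has no residual degrees of freedom with 1 library a side. Alternatives included DESeq2 1.42.0 size factors. Levels are mean ± SD over 2 libraries, and errors cover these libraries only. Every member was described. The text gives values for members with a mean TPM of at least 50, the lowest 5, the 6 highest and 4 lowest shares, differences of at least 10 points, and the others by role. The requirement of complete ends for the coding transcript used as reference was added after seeing the data. The members and lists were chosen with earlier results of these data known. Lists of junctions and contigs on mm9, another build, were not used here. Scripts ran in Python 3.11.15 with scipy 1.17.1, numpy 2.4.6 and pandas 2.3.3, and figures were drawn with matplotlib 3.10.9.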

Additional observations from a re-analysis of the deposited data

How the results depend on the processing

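The median level of the members, 14.2 TPM, was 15.1 in FPKM, 34.4 with TPM rescaled over nuclear protein-coding genes, 17.8 over members with at least 1 TPM in both libraries and 15.6 to 16.2 with one library left out. The same 5 genes led in each of these settings. The 0 members called between the libraries became 26 without a fold limit and 8 with a fold of at least 1.5 (background 27.3%). They stayed at 0 with DESeq2 size factors (background 11.7%), total counts (12.4%), no filter (10.6%), posterior mean counts (11.7%) and GC correction (9.07%). With total counts in place of TMM, 21 members lay below 0 and 9 above, and the median over all genes moved to 0.11. The pooled share of other types, 33.6%, was 23.0% by estimated counts, 43.2% with incomplete coding transcripts counted among the other types (chosen after seeing the data) and 32.2% to 35.0% with one library left out. The median share, 43.5% (12.0% over all genes), was 34.2% by estimated counts (5.15%), 59.4% with incomplete coding transcripts (21.3%), 39.1% at a TPM of at least 1 (12.8%), 36.05% at a TPM of at least 50 (5.81%) and 44.7% to 46.7% with one library left out. Of 25 alternative values for differences in share, 23 kept their side of 10 points and none reversed. Many of these could not move. Leaving out transcripts under 300 nucleotides, or those without a type, left every one of these differences unchanged. Those of Srsf2, Srsf10 and Srsf9 were also unchanged with incomplete coding transcripts counted among the other types. The values that fell below 10 points were those of Hnrnpk by estimated counts (-5.09 points) and Hnrnpdl with incomplete coding transcripts (4.66 points). Of the alternative values for the mean shares of named genes, 13 moved by at least the SD over the 2 libraries and 52 did not. By estimated counts the mean share of Hnrnpk went from 30.9% to 9.92%, and that of Hnrnpa3 from 12.0% to 1.27%. The cause of these shifts was not tested. Transcript levels rest on a model that divides shared reads, which depth alone does not settle. No paired analysis was possible because the series has 1 group with 2 replicates.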

Other observations

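Genes that work with the 2 families were also present. All 10 SR-like activators reached 1 TPM in both libraries (median 9.22 TPM), led by Srrm2, a large speckle scaffold protein, at 111.29 and 167.92 TPM, and Son, another one, at 73.46 and 57.63 TPM. Of 10 SR protein kinases and import factors (median 14.1 TPM), the highest means were those of the muscle-enriched kinase Srpk3, at 26.77 and 33.96 TPM, and of Clk1, which phosphorylates SR proteins in the nucleus, at 28.81 and 22.98 TPM. Their ranges overlapped. Of 20 hnRNP-like proteins of other names (median 21.5 TPM), Ewsr1 stood at 67.47 and 86.68 TPM. None of these genes was called different between the libraries by the exact binomial test (background 11.7%).

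The share of transcripts of other types was also high in some of these lists. Medians were taken over genes that had a quantified transcript of another type and reached a mean of 10 TPM. Genes without such a transcript, among them Pcbp1, Pcbp2 and Rbm24, were left out. The median share was 58.9% for SR-like activators (n = 4), 44.1% for kinases and import factors (n = 6) and 45.8% for the hnRNP-like proteins (n = 9). It was 13.6% for core spliceosome genes (n = 10), 24.6% for nonsense-mediated decay factors (n = 4) and 29.1% for muscle splicing regulators (n = 6). Over all genes under the same filter it was 12.0%. In Clk1 other types held a mean of 92.2%, and in Srrm2 82.4%.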
